A study of Mus musculus with 18 samples.

Results

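H3K27ac was compared between bone marrow-derived macrophages (BMDM) of mdxTLR4-/- and wild-type (WT) mice, gene by gene, from the 1 peak list that was deposited for each genotype. A gene entered the comparison when an H3K27ac peak of either list touched the window from 5 kb before to 5 kb after its transcription start. Of the 20807 protein-coding genes of chromosomes 1 to 19 in GENCODE vM21, 7810 had such a peak, and these are the genes described. A gene with a peak in both lists is called kept, with a WT peak alone lost, and with an mdxTLR4-/- peak alone gained. A missing peak means only that the reads there did not reach the threshold of the peak caller, and not that reads were absent.

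The WT list came from 2 ChIP libraries that the authors merged, from mice labelled strain C57BL6 and 19 and 20 weeks of age. The mdxTLR4-/- list came from 1 library, labelled strain Bl6/Bl10 and 23 weeks. The mdxTLR4-/- mice carry a mutated dystrophin gene (mdx4cv) together with the genetic abrogation of TLR4. The study's methods place the mdx4cv, TLR4-/- and WT stocks on C57BL/6J and state that all mice were male, whereas the label of the mdxTLR4-/- library names both Bl6 and Bl10. No mouse of this comparison lacked TLR4 with an intact dystrophin gene, so both alleles differ at the same time. All macrophages were untreated after 7 days of culture of bone marrow in medium conditioned by L929 cells. The labelled ages go up by 1 week from sample to sample through the whole series, inputs included. Those of the libraries compared here lie outside the age ranges that the study gives for its disease stages. Whether they are the true ages is not known. Genotype, strain, labelled age and library cannot be told apart here. With 1 library of mdxTLR4-/- no test between genotypes was possible, and every interval below covers counting error alone.

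H3K27ac is the acetylation of lysine 27 on histone H3, a mark laid down by the acetyltransferases p300 and CBP at active promoters and enhancers. TLR4 is the receptor for lipopolysaccharide and for molecules released by damaged tissue. It works with the co-receptors MD-2 and CD14 and signals through the adaptors MyD88 and TRIF to NF-kappaB, AP-1 and interferon regulatory factors. Macrophages hold many promoters and enhancers of inflammatory genes in an acetylated state before any stimulus, under lineage factors such as PU.1.

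The promoters of 6 genes that stand for the patterns described below are shown here, each from 250 bases before to 50 bases after the start. The sequences are from RefSeq on GRCm38.p6, the assembly of the mm10 coordinates of the peaks, and CG dinucleotides are in capitals. Irf5 (kept, the strongest peak of the TLR4 pathway), Tnf (lost), Ripk1 and Traf3 (both gained), Rbm39 (kept, with the highest ratio of mdxTLR4-/- to WT reads) and Ifnz (kept, with a low ratio) lie on both strands of 6 chromosomes.
Irf5, chr6:29526375-29526674, plus strand, kept: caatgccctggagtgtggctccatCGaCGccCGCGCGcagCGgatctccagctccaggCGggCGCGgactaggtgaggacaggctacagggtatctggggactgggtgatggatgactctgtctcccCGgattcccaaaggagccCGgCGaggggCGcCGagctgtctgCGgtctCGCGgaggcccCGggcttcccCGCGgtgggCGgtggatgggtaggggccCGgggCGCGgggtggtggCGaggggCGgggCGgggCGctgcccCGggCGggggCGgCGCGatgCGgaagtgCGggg
Tnf, chr17:35201958-35202257, minus strand, lost: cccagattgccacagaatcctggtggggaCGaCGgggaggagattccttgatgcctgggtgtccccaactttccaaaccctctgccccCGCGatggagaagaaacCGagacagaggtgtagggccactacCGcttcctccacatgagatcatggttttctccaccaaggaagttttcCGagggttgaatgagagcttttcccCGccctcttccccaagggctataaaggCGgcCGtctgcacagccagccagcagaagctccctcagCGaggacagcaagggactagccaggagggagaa
Ripk1, chr13:34002113-34002412, plus strand, gained: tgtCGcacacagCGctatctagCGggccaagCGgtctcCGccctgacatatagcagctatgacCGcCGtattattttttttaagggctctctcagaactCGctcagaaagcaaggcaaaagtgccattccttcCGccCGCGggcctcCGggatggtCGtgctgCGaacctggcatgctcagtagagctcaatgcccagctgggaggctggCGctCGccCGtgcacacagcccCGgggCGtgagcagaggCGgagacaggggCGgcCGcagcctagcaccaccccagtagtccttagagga
Traf3, chr12:111166120-111166419, plus strand, gained: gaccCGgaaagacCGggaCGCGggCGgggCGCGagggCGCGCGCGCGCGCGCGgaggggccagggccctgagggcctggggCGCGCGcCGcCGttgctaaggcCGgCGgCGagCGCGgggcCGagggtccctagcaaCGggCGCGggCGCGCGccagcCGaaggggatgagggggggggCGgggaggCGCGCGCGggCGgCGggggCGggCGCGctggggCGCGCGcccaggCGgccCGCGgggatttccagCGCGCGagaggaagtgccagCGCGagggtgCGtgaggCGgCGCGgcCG
Rbm39, chr2:156180189-156180488, minus strand, kept: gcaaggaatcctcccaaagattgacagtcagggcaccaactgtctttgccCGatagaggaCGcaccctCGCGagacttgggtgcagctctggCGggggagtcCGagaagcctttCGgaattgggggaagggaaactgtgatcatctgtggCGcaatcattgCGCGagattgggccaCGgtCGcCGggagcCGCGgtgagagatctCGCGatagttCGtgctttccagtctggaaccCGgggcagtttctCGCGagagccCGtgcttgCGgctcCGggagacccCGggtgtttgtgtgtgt
Ifnz, chr4:88781881-88782180, plus strand, kept: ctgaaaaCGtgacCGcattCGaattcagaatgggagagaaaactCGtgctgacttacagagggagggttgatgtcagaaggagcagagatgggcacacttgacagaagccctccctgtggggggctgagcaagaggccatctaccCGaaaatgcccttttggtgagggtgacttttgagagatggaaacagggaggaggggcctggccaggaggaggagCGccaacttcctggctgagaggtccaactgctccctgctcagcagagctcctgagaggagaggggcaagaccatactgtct
The 300 bases hold 35 CG dinucleotides in Irf5, 11 in Tnf, 22 in Ripk1, 59 in Traf3, 25 in Rbm39 and 6 in Ifnz, beside a median of 12.0 over the starts of all genes.

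On chromosomes 1 to 19 the WT list held 14962 peaks with 266063 reads and the mdxTLR4-/- list 12204 peaks with 165505 reads. The smallest peak had 5 reads in both lists, and the median peak had 11.0 reads in WT and 8.00 in mdxTLR4-/-. The total depth of the libraries is unknown here. Reads are therefore given first as deposited, unscaled, and then as a scaled ratio, in which each list is set to 1000000 reads in its own peaks. The scaling multiplies every unscaled ratio of mdxTLR4-/- to WT by 1.61, or 0.68 on the log2 scale. It cannot show a change shared by all peaks.

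Most genes with H3K27ac near their start had it in both genotypes. A peak was kept at 5371 genes (25.8% of all protein-coding genes), lost at 1484 (7.13%) and gained at 955 (4.59%), and 12997 (62.5%) had no peak in either list. Of the 6855 genes with a WT peak 21.6% (Wilson 95% interval 20.7 to 22.6) had none in mdxTLR4-/-, and of the 6326 genes with an mdxTLR4-/- peak 15.1% (14.2 to 16.0) had none in WT. The excess of lost over gained genes was smaller or absent with lists of equal length. When the same number of peaks was taken from each list by reads, 1144 genes were lost and 1200 gained, and by reads per kb 1260 were lost and 1168 gained. When WT peaks were required to hold at least 9 reads, the count that scales to the minimum of 5 in the mdxTLR4-/- list, 833 genes were lost and 1514 gained. With at least 10 reads required in both lists, 1933 were lost and 345 gained. Lost genes made up 60.8% of the lost and gained genes as deposited, 48.8% and 51.9% with equal numbers of peaks by reads and by reads per kb, and 35.5% and 84.9% with the 2 minimum sizes, so which list had more genes of its own depended on the peaks taken. In bulk chromatin, fewer cells that carry the mark and less of the mark per cell cannot be told apart.

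Lost and gained genes were those with few reads. The median lost gene had 9.00 WT reads, with quartiles of 7.00 and 13.0, whereas the median kept gene had 20.0 WT reads. The median gained gene had 6.00 mdxTLR4-/- reads against 13.0 for kept genes. Among genes with 5 to 9 WT reads 52.3% were lost (interval 49.8 to 54.8), and the share was 28.6% at 10 to 14 reads, 15.5% at 15 to 19, 5.94% at 20 to 29 and 2.91% at 30 to 49. In the other direction 31.5% of genes with 5 to 9 mdxTLR4-/- reads were gained, 9.23% of those with 10 to 14 and 3.39% of those with 15 to 19. None of the 51 genes with 100 or more mdxTLR4-/- reads lacked a WT peak, which allows a share of up to 7.00% by the Wilson interval. The loss of a peak at a gene with under 15 WT reads was thus a common event in this pair of lists. So was the gain of a peak at a gene with 5 to 9 mdxTLR4-/- reads.

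**Figure D1:**
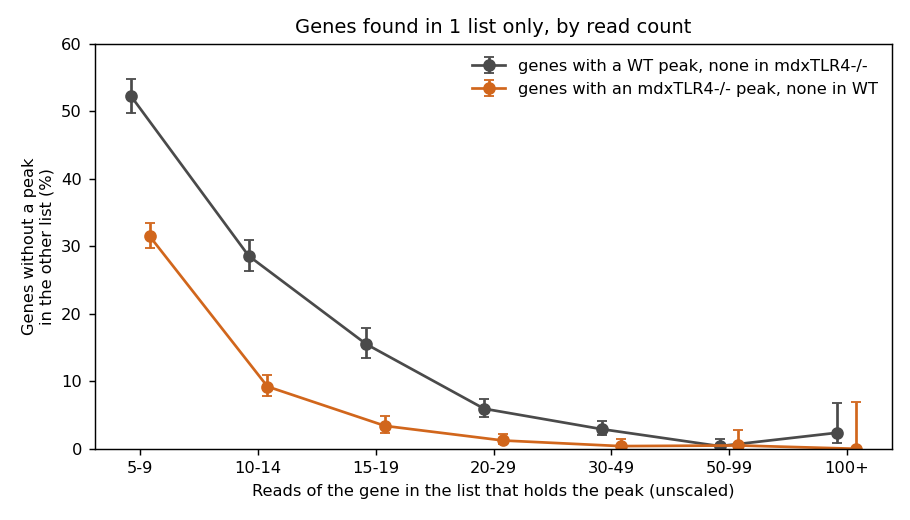
Share of genes (%, y axis) with a peak in 1 list and none in the other, by the gene's unscaled reads in the list that holds the peak (x axis). Grey points are genes with a WT peak and orange points genes with an mdxTLR4-/- peak, and the bars are Wilson 95% intervals. The grey points go from 52.3% at 5 to 9 reads to 2.91% at 30 to 49 reads, and the orange points from 31.5% to 0.397%.

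Tlr4, the gene whose product mdxTLR4-/- mice lack, kept its promoter peak. The WT peak held 44 reads and ran from 983 bp before to 1816 bp after the Tlr4 start (chr4, position 66827584, plus strand). The mdxTLR4-/- peak held 28 reads and ran from 183 bp before to 1416 bp after the same start. The unscaled ratio was 0.636 (exact 95% interval 0.382 to 1.05) and the scaled ratio 1.02 (0.613 to 1.68). From 5 kb before the start to the end of the gene WT had 2 peaks with 52 reads and mdxTLR4-/- 4 peaks with 43 reads. The sources used here do not say how Tlr4 was disrupted or which part of it is missing. Acetylation at its promoter therefore does not check the genotype.

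The genes of the co-receptors MD-2 and CD14 were also kept. Ly96, which encodes MD-2, the lipopolysaccharide-binding partner of TLR4, had 59 WT and 43 mdxTLR4-/- reads, a scaled ratio of 1.17 (0.772 to 1.77). Cd14, the co-receptor that loads lipopolysaccharide onto MD-2, had 67 and 36 reads, a scaled ratio of 0.864 (0.559 to 1.31). Lbp, the serum carrier of lipopolysaccharide that is made mainly in liver, had a WT peak of 6 reads and none in mdxTLR4-/-.

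The adaptors and proximal kinases had smaller peaks. Myd88, the adaptor used by most Toll-like receptors, had 13 WT and 11 mdxTLR4-/- reads, and Ticam2, which bridges TLR4 to TRIF, had 11 and 13. Tirap and Ticam1, the adaptors MAL and TRIF, and the kinase Irak2 had no peak in either list. Irak4, the first kinase recruited to MyD88, was kept with 30 and 14 reads, a scaled ratio of 0.750 (0.368 to 1.46). Irak3, a brake on the pathway that is found mainly in myeloid cells, lost the WT peak of 12 reads over its start. A second peak of Irak3, upstream and outside the window, was in both lists, with 21 WT and 26 mdxTLR4-/- reads.

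The 4 gained genes of the pathway lay at the level of TRAF and kinase complexes. Ripk1, a kinase of the TRIF and TNF receptor branches, had mdxTLR4-/- peaks of 10 reads, over the start, and 5 reads, at 4638 bp after it, while its nearest WT peak was 36.6 kb away. Traf3, a ubiquitin ligase of the interferon branch, had mdxTLR4-/- peaks of 9 and 6 reads on either side of the start and no WT peak in the window. Further upstream of Traf3 both lists had a peak, of 8 reads each. Traf6, the ubiquitin ligase downstream of MyD88, and Chuk, which encodes IKK alpha, were gained with 6 reads each. Ikbkb, which encodes IKK beta, lost a WT peak of 12 reads. Of all genes with 15 to 19 mdxTLR4-/- reads, the range of Ripk1 and Traf3, 3.39% were gained, and of those with 5 to 9 reads, the range of Traf6 and Chuk, 31.5%.

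The remaining kinases and the transcription factors were kept. Tbk1, the kinase that phosphorylates IRF3, had 63 WT and 51 mdxTLR4-/- reads, a scaled ratio of 1.30 (0.882 to 1.91), and Ikbke, its relative, had 19 and 13. Map3k7, which encodes TAK1, had 21 and 10 reads, and its partners Tab1 and Tab2 had 16 and 17, and 14 and 15. Irf3 had 16 and 11 reads. Irf5, a factor for inflammatory cytokine genes, had the strongest signal of the pathway in both lists. Its WT peak of 148 reads ran from 4624 bp before to 3975 bp after the Irf5 start. In mdxTLR4-/- the same stretch held a peak of 50 reads and a separate peak of 7, a scaled ratio of 0.619 (0.448 to 0.846). Irf5 was the 1 kept member of 13 whose interval did not hold 1, beside 3.43% of all kept genes with an interval below 1 and 7.73% with an interval above 1.

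In all, 13 of the 23 measured genes of the TLR4 pathway were kept (56.5%, beside 25.8% of all genes). Of the others 3 were lost, 4 gained and 3 without a peak. The lost members were 18.8% of those with a WT peak, beside 21.6% over all genes, and the gained members 23.5% of those with an mdxTLR4-/- peak, beside 15.1%. The median scaled log2 ratio of the kept members was 0.14, and it was 0.14 over all kept genes. The lost and gained members had 6 to 15 reads, and 16 of the 23 had a WT peak and 17 an mdxTLR4-/- peak.

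**Figure D2:**
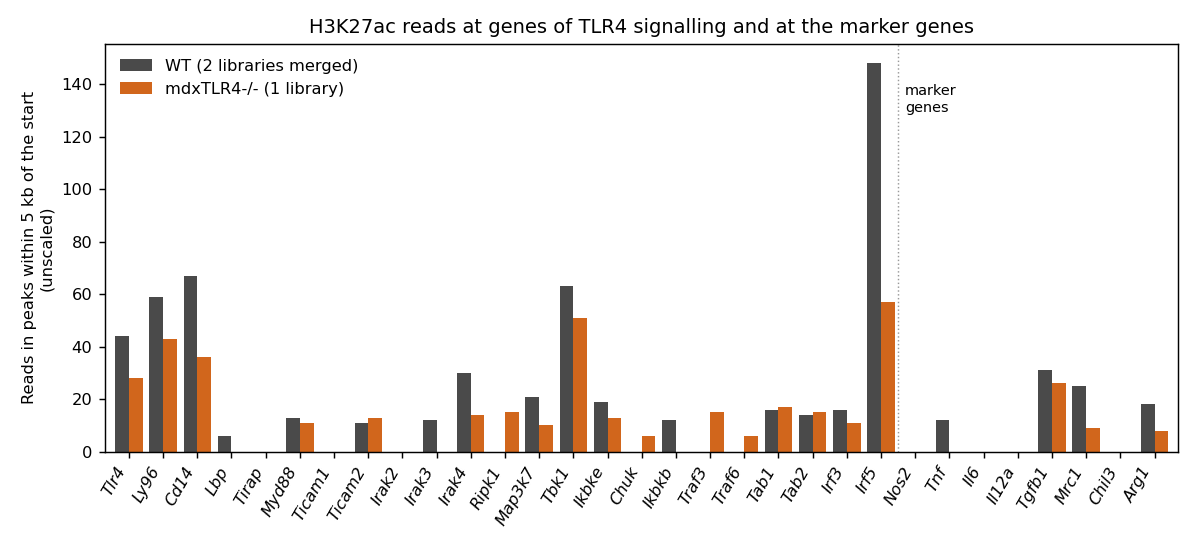
Unscaled H3K27ac reads (y axis) in peaks within 5 kb of the start of each gene of the TLR4 pathway and of the 8 marker genes (x axis), WT in grey and mdxTLR4-/- in orange. Irf5 stands highest with 148 and 57 reads, Tlr4 has 44 and 28, and the genes with a bar in 1 list alone have 6 to 15 reads.

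Of the 8 marker genes that the study uses for pro-inflammatory (M1) and anti-inflammatory (M2) macrophages, 4 had no H3K27ac peak in either list. These were Nos2, Il6 and Il12a, inducible inflammatory genes, and Chil3, a chitinase-like protein of alternative activation. Over Il12a, which encodes a subunit of interleukin 12, both genotypes had an H3K27me3 peak at the start, with 191 reads in WT and 145 in mdxTLR4-/-. Tnf, the gene of the cytokine TNF, lost its only peak in the window, which held 12 WT reads and ran from 393 bp before to 1806 bp after the Tnf start. The next Tnf peaks, on either side, were in both lists, with 29 WT and 18 mdxTLR4-/- reads upstream and 30 and 6 reads downstream. The neighbouring gene Lta, which encodes lymphotoxin alpha and shares the Tnf peak, was kept with 41 WT and 18 mdxTLR4-/- reads, since the upstream peak lies in its window. H3K27me3, the repressive mark of the same lysine, had WT peaks of 60 and 51 reads on the 2 sides of Tnf within 10 kb and no mdxTLR4-/- peak within 15 kb.

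The other 3 marker genes were kept. Tgfb1, a cytokine of tissue repair and fibrosis, had 31 WT and 26 mdxTLR4-/- reads, a scaled ratio of 1.35 (0.769 to 2.35). Mrc1, the mannose receptor CD206, had 25 and 9 reads, a scaled ratio of 0.579 (0.238 to 1.28) and an unscaled ratio of 0.360 (0.148 to 0.797). Arg1, the enzyme that turns arginine into ornithine, had 18 and 8 reads, a scaled ratio of 0.714 (0.269 to 1.73). All 3 scaled intervals held 1. Both lists had a peak over the Tgfb1 start. A WT peak covered the Mrc1 start, and the nearest mdxTLR4-/- peak was 1.61 kb away. The nearest Arg1 peak was 0.317 kb from the start in WT and 2.72 kb in mdxTLR4-/-.

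**Figure D3:**
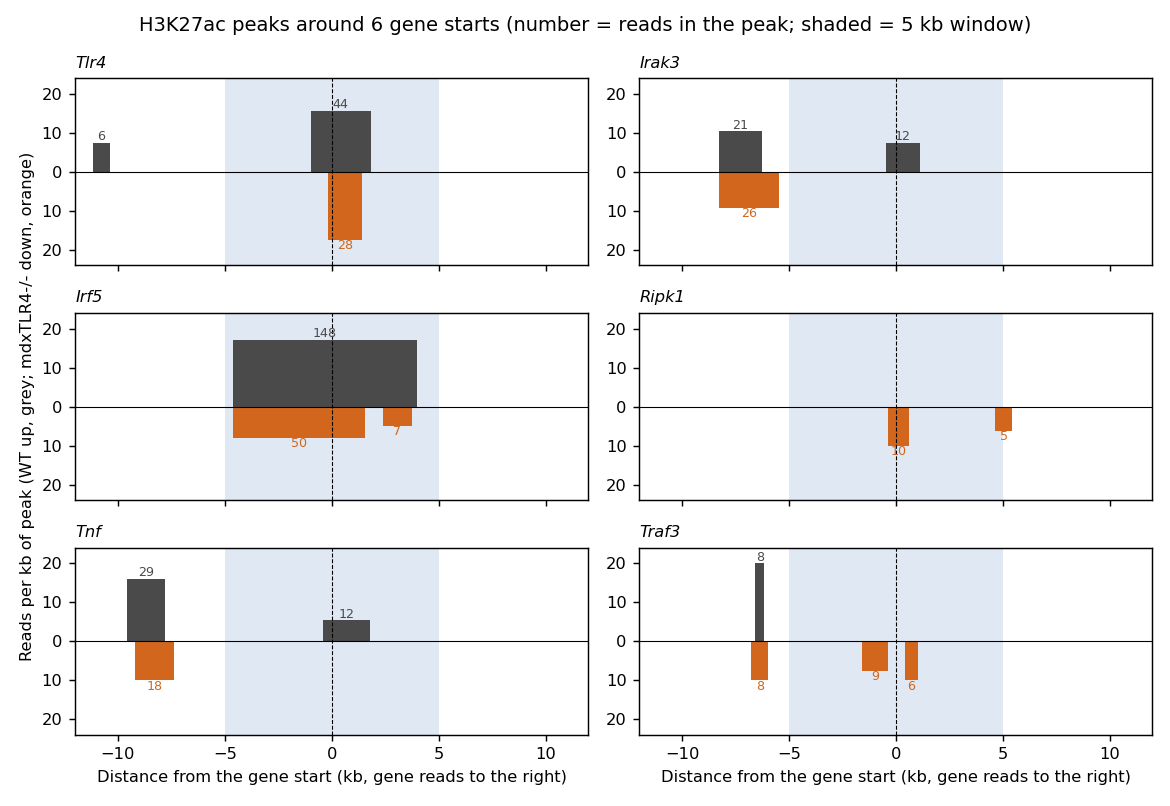
H3K27ac peaks around the starts of 6 genes, by distance from the start in kb (x axis) and reads per kb of peak (y axis), with WT upward in grey and mdxTLR4-/- downward in orange and the reads of each peak written at its end. The shaded band is the 5 kb window. Tlr4 and Irf5 have a peak over the start in both lists, Tnf and Irak3 in WT alone, and Ripk1 and Traf3 have peaks in the window in mdxTLR4-/- alone.

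The other Toll-like receptors and the NF-kappaB genes were mostly kept. Of 10 genes of other Toll-like receptors and their partners 6 were kept, 1 lost and 3 without a peak, and the kept median was -0.02. Tlr6, which pairs with TLR2 for bacterial lipopeptides, had 78 WT and 47 mdxTLR4-/- reads, a scaled ratio of 0.969 (0.660 to 1.41). Cd180, a relative of TLR4 on B cells and macrophages, had 74 and 56 reads, a scaled ratio of 1.22 (0.844 to 1.74). Tlr11, a receptor for a protozoan protein, was lost with 11 WT reads. Of 14 NF-kappaB subunits and inhibitors 11 were kept (78.6%), with a median of -0.09. The 1 lost was Tnip1 (7 WT reads), 8.33% of those with a WT peak. The 1 gained was Relb (6 mdxTLR4-/- reads), 8.33% of those with an mdxTLR4-/- peak, beside 15.1% over all genes. Nfkbid, a nuclear regulator of NF-kappaB, had 69 and 37 reads, and Rel, the subunit c-Rel, had 68 and 31 reads, a scaled ratio of 0.733 (0.463 to 1.14).

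Interferon-stimulated genes were acetylated in both genotypes. Of 30 genes 28 were kept (93.3%, beside 25.8% of all genes). The 2 lost were 6.67% of those with a WT peak, beside 21.6% over all genes. All 30 had a WT peak, so none could be gained. The median scaled log2 ratio of the 28 was -0.24, and 19 of them had a scaled ratio below 1, beside a median of 0.14 and 40.6% below 1 over all kept genes. Irf9, the DNA-binding subunit of the interferon-activated factor ISGF3, had 75 WT and 35 mdxTLR4-/- reads, a scaled ratio of 0.750 (0.487 to 1.13). Ifit3, an antiviral RNA-binding protein, had 67 and 35, a scaled ratio of 0.840 (0.541 to 1.28). Irf1, an interferon-induced transcription factor, had 62 and 35, a scaled ratio of 0.908 (0.582 to 1.40). A WT peak covered the Irf1 start, whereas the nearest mdxTLR4-/- peak lay 4.81 kb from it, near the window's edge. Ifit1 lost a WT peak of 16 reads over its start, with no mdxTLR4-/- peak within 15 kb, and Ddx58, the RNA sensor RIG-I, a WT peak of 6 reads. Each gene's own interval was wide, and 26 of the 28 intervals held 1.

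A run of type I interferon genes on chromosome 4 had ratios among the lowest of the kept genes. The 14 neighbouring genes of the interferon zeta family (Ifnz and 13 predicted genes) were all kept, with 34 to 197 WT reads and 7 to 21 mdxTLR4-/- reads in their windows. Over the whole run (chr4:88749868-88810531) WT had 13 peaks of 14 to 62 reads, 377 reads in all, and mdxTLR4-/- 12 peaks of 5 to 10 reads, 80 reads in all. The peaks were thus present in both lists and held at most 10 reads each in mdxTLR4-/-. The read ranges of the peaks did not overlap as deposited. They did overlap after the scaling by 1.61, which lifts the largest mdxTLR4-/- peak above the smallest WT peak. The scaled ratio was 0.341 (0.265 to 0.435) over the run, and it was 0.106 to 0.497 in the windows of the 14 genes, which overlap and share peaks. Over all kept genes 4.88% had scaled reads at least 2-fold lower in mdxTLR4-/-. None of the 16 genes of interferon alpha, beta and epsilon had a peak. The interferon zeta genes are near-identical copies, so reads could be placed on the wrong copy and the number of copies can differ between strains. Neither was tested.

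Cytokine and chemokine genes lacked a peak about as often as other genes in these untreated cells. Of 25 cytokines and antagonists 7 were kept, 1 lost (Tnf), 2 gained and 15 without a peak, beside 62.5% of all genes. Il15, a survival factor for lymphocytes, had 26 WT and 21 mdxTLR4-/- reads, a scaled ratio of 1.30 (0.695 to 2.40). Osm, the cytokine oncostatin M, and Csf1, the growth factor of macrophages, were gained with 7 and 5 reads. Of 30 chemokine ligands and receptors 10 were kept, 1 lost, 3 gained and 16 (53.3%) without a peak, and the kept median was 0.31. Ccl12, a ligand of CCR2, had 49 and 47 reads, a scaled ratio of 1.54 (1.01 to 2.35), and the receptor Ccr1 had 44 and 29. The gained members were Cxcl16, Ccl7 and Cxcl3 with 9, 8 and 5 reads. Chosen after its values were seen, Ccl3, a ligand of CCR1, had 13 WT and 25 mdxTLR4-/- reads over its start, a scaled ratio of 3.09 (1.52 to 6.58).

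The cells carried the marks of macrophages in both lists. Of 22 macrophage markers 20 were kept (90.9%, beside 25.8% of all genes) and 2 lost. The 22 had 7 to 213 WT reads, 1508 in sum, and 933 mdxTLR4-/- reads in sum. The median scaled log2 ratio of the 20 was -0.01. Csf1r, the receptor for CSF1, had 162 and 103 reads, a scaled ratio of 1.02 (0.791 to 1.32). C1qc, a chain of complement C1q, had 213 and 132, a scaled ratio of 0.996 (0.796 to 1.24). The 2 lost markers were Lyz1 and Mmp12, with 10 and 7 WT reads. Of 44 markers of T cells, B cells, neutrophils, erythroid cells, fibroblasts, muscle and dendritic cells, 4 had a WT peak, of 6 to 11 reads, and 3 an mdxTLR4-/- peak, of 7 to 12 reads. These 6 genes were Cd4 and Cd3d of T cells, Cd79a and Ms4a1 of B cells, Prtn3 of neutrophils and Acta1 of muscle. Cd79a, Cd4 and Acta1 were lost with 11, 9 and 6 WT reads, and Prtn3 and Cd3d were gained with 7 reads each. Ms4a1 was the 1 that was kept, with 7 WT and 12 mdxTLR4-/- reads. The other 38 markers (86.4%, beside 62.5% of all genes) had no peak in either list.

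Lineage transcription factors were kept in 18 of 23 cases (78.3%, beside 25.8% of all genes), with a median of 0.01. Spi1, which encodes PU.1, had 108 WT and 95 mdxTLR4-/- reads, a scaled ratio of 1.41 (1.06 to 1.88) and an unscaled ratio of 0.880 (0.661 to 1.17). Maf, a factor of resident macrophages, had 96 and 71, a scaled ratio of 1.19 (0.862 to 1.63). Nr1h3, the oxysterol receptor LXR alpha, had 75 and 30, a scaled ratio of 0.643 (0.406 to 0.994). Klf4 was lost with 8 reads and Mitf gained with 5. Among AP-1 and early response genes 14 of 28 were kept, 2 lost, 1 gained and 11 without a peak, with a median of 0.03. Klf6 had 187 and 125 reads, a scaled ratio of 1.07 (0.850 to 1.35), and Jun 112 and 95, a scaled ratio of 1.36 (1.03 to 1.81). Zfp36, which encodes the protein tristetraprolin that destabilises Tnf mRNA, had 181 and 71, a scaled ratio of 0.631 (0.472 to 0.834). With joined peaks, as defined below, which brought in mdxTLR4-/- reads from outside the window, Zfp36 had 181 and 92 reads, a ratio of 0.817 (0.629 to 1.06). Klf2, a factor that restrains inflammatory genes, lost WT peaks of 17 reads in sum and Egr2 of 7.

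Among lysosome genes 24 of 35 were kept (68.6%, beside 25.8% of all genes), with a median of 0.21. Psap, the precursor of the saposins, had 260 WT and 236 mdxTLR4-/- reads, a scaled ratio of 1.46 (1.22 to 1.75) and an unscaled ratio of 0.908 (0.758 to 1.09). Ctsb, the protease cathepsin B, had 268 and 174, a scaled ratio of 1.04 (0.857 to 1.27). Lipa, the lysosomal acid lipase, had 151 and 56, a scaled ratio of 0.596 (0.431 to 0.815), and 151 and 72 with joined peaks, a ratio of 0.767 (0.571 to 1.02). Among lipid-handling genes 14 of 27 were kept (51.9%), with a median of -0.31, 3 lost and 3 gained. Plin2, the coat protein of lipid droplets, had 89 and 55 reads, a scaled ratio of 0.993 (0.697 to 1.41). Antigen-presentation genes of the MHC were kept in 12 of 16 cases, with a median of 0.02. B2m, the light chain of class I molecules, had 127 and 60 reads, a scaled ratio of 0.759 (0.549 to 1.04), and H2-DMa, a peptide exchanger of class II, 81 and 32, a scaled ratio of 0.635 (0.408 to 0.967).

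Glycolysis and respiratory genes with a WT peak were lost in shares near that of all genes. Of 20 glycolysis genes 11 were kept (55.0%, beside 25.8% of all genes), with a median of -0.19. Of the others 4 were lost (26.7% of those with a WT peak, beside 21.6% over all genes) and 1 gained. Ldha, the lactate dehydrogenase subunit that makes lactate, lost WT peaks of 10 and 25 reads on the 2 sides of its start, and its nearest mdxTLR4-/- peak was 9.07 kb away. Pgam1 and Pfkl, which act earlier in glycolysis, were lost with 18 and 15 reads, and Pkm, the pyruvate kinase, was kept with 59 and 28, a scaled ratio of 0.763 (0.468 to 1.22). Of 30 genes of the citrate cycle and respiratory chain 17 were kept (56.7%), with a median of 0.01. Of the others 4 were lost (19.0% of those with a WT peak) and 3 gained. Sdhb, a subunit of succinate dehydrogenase, was lost with 23 WT reads, and Cox4i1, a subunit of cytochrome oxidase, was gained with 16 reads. Of 17 genes of the mevalonate pathway 4 were kept, 3 lost, 2 gained and 8 without a peak. The lost were 42.9% of the 7 with a WT peak, beside 21.6% over all genes. The gained were 33.3% of the 6 with an mdxTLR4-/- peak, beside 15.1%. None of these lost or gained genes held more than 12 reads.

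Histone genes of the replication-dependent clusters were kept in 63 of 67 cases (94.0%, beside 25.8% of all genes). Their median scaled log2 ratio was 0.43, but they shared 37 sets of peaks, so neighbouring genes repeat each other. Cytosolic ribosomal protein genes were kept in 50 of 77 cases (64.9%), with a median of 0.17. Of the others 14 were lost (21.9% of those with a WT peak, beside 21.6% over all genes) and 3 gained. Of 44 cell cycle genes 20 were kept (45.5%), 6 lost (23.1% of those with a WT peak) and 4 gained. Their kept median was -0.15, and Mcm2, a part of the replicative helicase, had 61 and 40 reads. Of 27 stress response genes 16 were kept (59.3%), with a median of 0.26. Nfe2l2, the regulator of oxidative stress genes NRF2, had 113 and 74 reads, a scaled ratio of 1.05 (0.774 to 1.42). Atf6, a sensor of unfolded protein, was lost with 21 WT reads. Among 30 writers and erasers of H3K27 marks 16 were kept (53.3%), with a median of 0.09, 4 lost and 1 gained. Kdm6b, the H3K27me3 demethylase JMJD3, had 84 and 55 reads, a scaled ratio of 1.05 (0.735 to 1.50), and Brd3, a reader of acetylated histones, was lost with 19. Of 18 genes of alternative activation and scavenging 8 were kept (44.4%), with a median of -0.16. Stab1, a scavenger receptor, had 75 and 66 reads, a scaled ratio of 1.41 (1.00 to 2.00).

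Of 14 genes of the dystrophin complex on these chromosomes 11 had no peak (78.6%, beside 62.5% of all genes). The dystrophin gene itself lies on chromosome X. Utrn, the autosomal relative of dystrophin, was kept with 10 WT and 19 mdxTLR4-/- reads, a scaled ratio of 3.05 (1.35 to 7.35). Sntb2, a syntrophin, was gained with 12 reads and Sspn, sarcospan, lost with 5.

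The gene lists that the study compiled as pro-inflammatory, anti-inflammatory and pro-fibrotic differed in how often their genes had a peak at all. The shares without a peak in either list were 37.7%, 46.1% and 67.8%, beside 62.5% of all genes. Of 679 pro-inflammatory genes 318 were kept, 69 lost and 36 gained, of 762 anti-inflammatory genes 275, 85 and 51, and of 59 pro-fibrotic genes 10, 4 and 5. The lost share of genes with a WT peak was 17.8%, 23.6% and 28.6%, beside 21.6% over all genes. The gained share of genes with an mdxTLR4-/- peak was 10.2%, 15.6% and 33.3%, beside 15.1%. The pro-fibrotic shares rest on 14 genes with a WT peak and 15 with an mdxTLR4-/- peak. With joined peaks, as defined below, 3 pro-fibrotic genes were lost and 11 kept, since Gdf3 was lost only at the window's edge. The kept medians were 0.05, 0.15 and -0.08, beside 0.14 over all kept genes. Arrdc3 and Clec4d, of the pro-inflammatory list, had 213 and 191, and 162 and 116 reads. Bmpr2, Smad3 and Cdkn2b of the pro-fibrotic list were gained with 13, 9 and 6 reads, and Smad4 and Smad2, which act in the same pathway of TGF beta signals, were lost with 10 reads each.

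**Figure D4:**
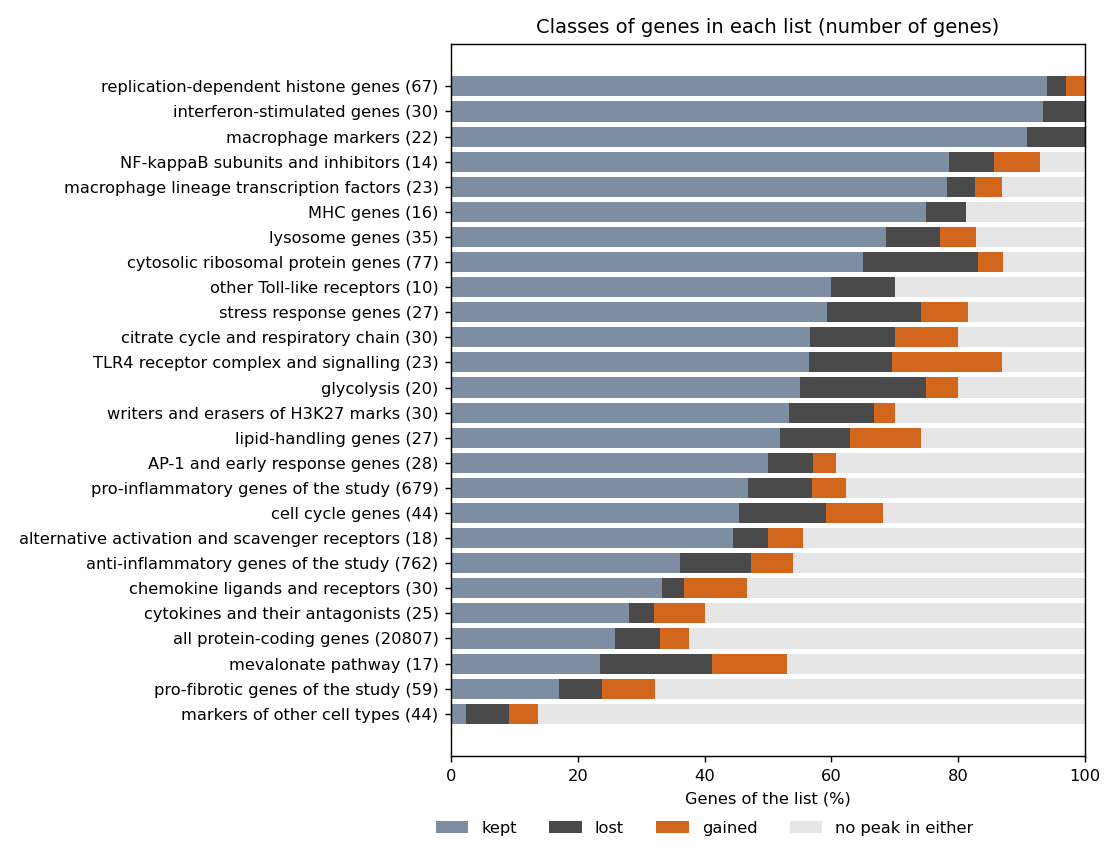
Share of the genes of each list (%, x axis) that were kept (blue-grey), lost (dark), gained (orange) or without a peak in either list (light), with the number of genes in brackets. Over all 20807 protein-coding genes 25.8% were kept, 7.13% lost and 4.59% gained.

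The largest losses in the window of 5 kb lay at its edge. The 10 lost genes with the most WT reads were Gdf3 (222 WT reads), Glipr1 (125), Bax (103), Hmg20b (52), Hps3 (50), Nfyc (45), E130114P18Rik (45), Slc26a1 (43), Otoa (43) and AL731706.2 (43). In every case an mdxTLR4-/- peak overlapped a WT peak of the gene and began 5.08 to 5.92 kb from the start, just outside the window. The Gdf3 peak, in front of a gene of the TGF beta family, had 222 reads in WT and 156 in mdxTLR4-/-, a scaled ratio of 1.13 (0.915 to 1.39), and it began 5.69 kb from the start in mdxTLR4-/-. The Bax peak, next to the gene of a protein that starts apoptosis at mitochondria, had 103 and 69 reads, a scaled ratio of 1.08 (0.782 to 1.48). Hps3 had the lowest ratio of the 10, 0.322 (0.145 to 0.641), from 50 and 10 reads. Of the 10 gained genes with the most mdxTLR4-/- reads 5 were of the same kind, Gsta4 (74), Eid3 (45), Ppp2r5a (38), Dennd6a (27) and Cad (21), with WT peaks 5.07 to 5.57 kb away. At these 15 loci both lists had a peak, and the class was set by the edge of the window. At Glipr1, Hmg20b and Hps3, however, a WT peak covered the start itself. The nearest mdxTLR4-/- peak there was 5.23, 5.32 and 5.92 kb away, so the mdxTLR4-/- list had no peak over these starts.

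Peaks of the 2 lists that overlapped were therefore joined into regions, and each gene was given the reads of the whole regions that touched its window, an alternative that was chosen after the data were seen. With joined peaks 5454 genes were kept, 1421 lost and 935 gained, so 63 lost and 20 gained genes became kept. No gene with 50 or more WT reads was then lost. Among genes with 30 to 49 WT reads 4 of 995 were lost. These 4 were Stap1 (40 WT reads), Slc25a37 (37), Ldha (35) and Mlxip (34).

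The losses that remained were at genes with 40 WT reads or fewer. Stap1, an adaptor protein of the CSF1 receptor, had WT peaks of 22 reads, over 55 to 2454 bp after the start, and 18 reads upstream, with no mdxTLR4-/- peak within 28.3 kb. Slc25a37, the mitochondrial iron importer mitoferrin 1, had WT peaks of 12 and 25 reads and its nearest mdxTLR4-/- peak 10.9 kb away. Mlxip, a glucose-responsive factor that pairs with MLX, had a WT peak of 34 reads across the start and its nearest mdxTLR4-/- peak 16.2 kb away. Card9, which links fungal receptors to NF-kappaB, had a WT peak of 26 reads across the start and a peak outside the window in both lists, of 12 WT and 9 mdxTLR4-/- reads. Csgalnact2, Faap20, Ppp1r9b, Maml1 and Wsb2 completed the 10 with 27 or 28 WT reads each.

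The gains that remained were smaller. Fam13b had an mdxTLR4-/- peak of 26 reads across the start, and its nearest WT peak was 115 kb away. Cgas, the sensor of cytosolic DNA that makes cyclic GMP-AMP, had mdxTLR4-/- peaks of 13 reads across the start and 8 reads upstream, while WT had a peak of 9 reads 7.76 kb away. Ap2m1, a subunit of the clathrin adaptor AP-2, had 3 mdxTLR4-/- peaks of 7 reads each. Rab29 had 20 reads across the start, with its nearest WT peak 42.8 kb away. Adprh and Cd80, the costimulatory ligand of CD28 on antigen-presenting cells, shared 2 mdxTLR4-/- peaks of 12 and 8 reads, with no WT peak within 15 kb of either start. Alg9 and Vps13d had 21 reads each, Coq8b 19, and Arf2 and Rap1gds1 18 each.

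Kept genes mostly had fewer reads in mdxTLR4-/- as deposited and similar reads after scaling. The median log2 ratio of mdxTLR4-/- to WT was -0.54 unscaled and 0.14 scaled, with scaled quartiles of -0.32 and 0.53. Unscaled, mdxTLR4-/- had fewer reads at 79.6% of kept genes, and scaled, 40.6% had a ratio below 1. A scaled ratio of at least 2-fold was found at 459 kept genes upward (8.55%) and at 262 downward (4.88%). The interval of the scaled ratio held 1 at 88.8% of kept genes. The sign of the median thus depended on the scaling. It was -0.40 when the lists were set to equal median reads per kb of peak and -0.11 when WT peaks of under 9 reads were left out.

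**Figure D5:**
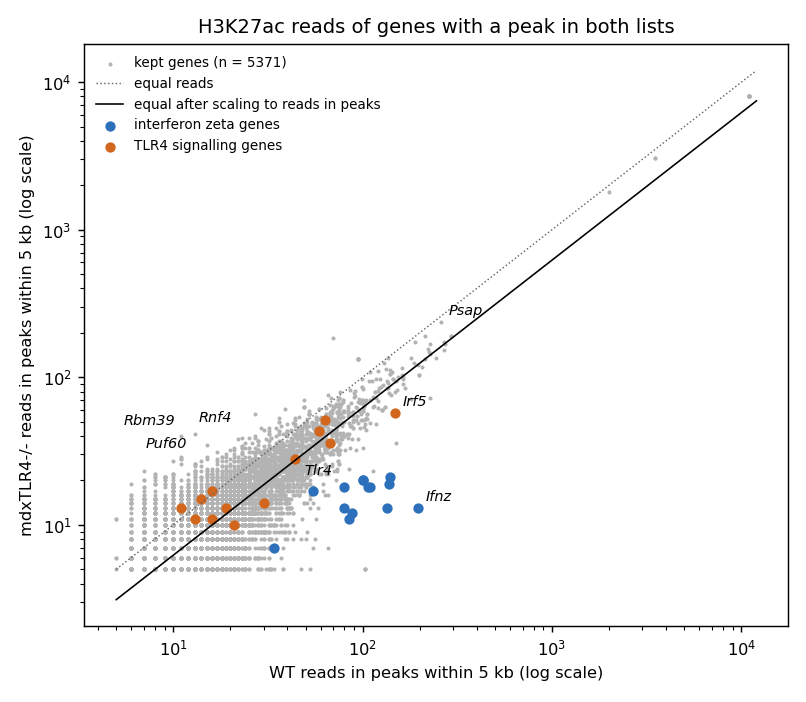
Unscaled H3K27ac reads of the 5371 kept genes in WT (x axis, log scale) and mdxTLR4-/- (y axis, log scale), each point a gene. The dotted line marks equal reads and the solid line equal reads after scaling to reads in peaks. The interferon zeta genes (blue) lie below the solid line, down to Ifnz with 197 and 13 reads, while the 13 kept TLR4 pathway genes (orange) lie on both sides of it, 4 of them below.

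The following genes were among the 8 with the highest ratios of the 1568 kept genes with at least 50 reads over both lists, and were named by rank alone. Rbm39, a splicing factor, had 11 WT and 40 mdxTLR4-/- reads over its start, a scaled ratio of 5.85 (2.94 to 12.6) and an unscaled ratio of 3.64 (1.83 to 7.86). A neighbouring Rbm39 peak upstream went the other way in reads, with 51 in WT and 27 in mdxTLR4-/-. Rnf4, a ubiquitin ligase that recognises SUMO chains, had 13 and 41 reads, a scaled ratio of 5.07 (2.66 to 10.3). Puf60, a splicing factor that binds polyuridine, had 15 and 35, a scaled ratio of 3.75 (2.00 to 7.39). Trib1, a pseudokinase that controls C/EBP alpha, had 22 and 38, a scaled ratio of 2.78 (1.60 to 4.93). Calr, the chaperone calreticulin, had 20 and 32, a scaled ratio of 2.57 (1.43 to 4.75). Hist1h4d and Hist1h2ah had scaled ratios of 4.25 and 3.33 in the window and of 1.80 and 1.41 with joined peaks. Joining brought in WT reads from peaks outside the window, so that WT reads went from 70 to 165 and from 27 to 64.

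The lowest ratios were at the interferon zeta genes Ifnz, Gm13272 and Gm13290, described above, and at 5 loci that did not stand apart with joined peaks. Gm49661, whose peaks are also those of Rnaseh2a and Prdx2, had 103 WT and 5 mdxTLR4-/- reads in the window and 103 and 54 with joined peaks. Tacc3 had 53 and 5 reads and then 53 and 31, Syf2 66 and 7 and then 66 and 42, Tpi1 47 and 5 and then 47 and 19, and Mdm2 55 and 7 and then 71 and 42. With joined peaks the 8 lowest ratios were at 6 genes of the interferon zeta run, at Gm21969 elsewhere on chromosome 4, with 50 and 8 reads and a scaled ratio of 0.257 (0.105 to 0.547), and at Cttnbp2nl, which had 47 and 8 reads, a scaled ratio of 0.274 (0.112 to 0.584).

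The most reads of all were at predicted genes in repeats. A set of peaks at the proximal end of chromosome 9, shared by Gm10715 and other predicted genes, held 10955 WT and 8085 mdxTLR4-/- reads, Gm10800 on chromosome 2 held 3486 and 3040, and Gm21738 on chromosome 14 held 2008 and 1802. Peaks of at least 50 reads per kb, 41 in WT and 30 in mdxTLR4-/-, held 7.15% and 9.11% of the reads in peaks. Without them and the peaks that overlap them the median scaled log2 ratio of kept genes was 0.18. Psap, Ctsb, Zeb2 and Mcl1 were also among the 8 kept genes with the most reads. Zeb2, a repressor needed for macrophage identity, had 272 and 169 reads, a scaled ratio of 0.999 (0.819 to 1.21). Mcl1, a survival factor, had 269 and 154, a scaled ratio of 0.920 (0.750 to 1.13), and 269 and 197 with joined peaks.

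The classes differed in where their peaks lay. A WT peak covered the start itself at 79.5% of kept genes and at 58.3% of lost genes, and an mdxTLR4-/- peak did so at 73.9% of kept and 56.6% of gained genes. WT peaks of kept genes had a median length of 2000 bp and 8.57 reads per kb, and those of lost genes 1600 bp and 6.25 reads per kb. mdxTLR4-/- peaks of kept genes had a median of 1600 bp and 7.50 reads per kb, and those of gained genes 1200 bp and 5.71. The lost share varied between chromosomes from 15.9% of genes with a WT peak on chromosome 12 to 26.3% on chromosome 14.

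Promoters of all 3 classes held more CG dinucleotides than those of genes without a peak. The 300 bases around the start held a median of 20.0 CG dinucleotides in kept, 17.0 in lost and 19.0 in gained genes, and 7.00 in genes without a peak. The TATA box core TATAAA, searched on both strands, was found at 7.38% of kept, 8.42% of lost and 9.11% of gained genes, beside 15.7% of genes without a peak and 12.7% of all. The PU.1 core GAGGAA was found at 28.0%, 28.9% and 25.2%, beside 27.8% of all genes. The AP-1 core TGANTCA was found at 4.88%, 5.05% and 4.82%, beside 6.88% of all, and the kappaB sequence, GGG and TTTCC with any 2 bases between, at 2.11%, 1.35% and 1.68%, beside 1.77% of all. The core of the interferon-stimulated response element, GAAA and GAAA with any 2 bases between, was found at 4.14%, 4.18% and 2.93%, beside 3.52% of all. Of the promoters printed above, that of Tnf held TATAAA and GAGGAA, that of Traf3 GAGGAA and the kappaB sequence, and the other 4 none of these motifs. A match describes the letters of the window and is not a bound site.

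H3K27me3, measured in other libraries of the same genotypes (labelled 12 and 13 weeks in WT and 16 and 17 weeks in mdxTLR4-/-) and called in merged lists of 2 libraries each, was rare at the starts of kept genes. A WT H3K27me3 peak covered the start at 1.60% of kept, 7.21% of lost, 6.81% of gained and 37.2% of genes without an H3K27ac peak. In mdxTLR4-/- the shares were 1.14%, 6.87%, 5.76% and 36.0%. Of the 1484 lost genes 17 had an H3K27me3 peak over the start in mdxTLR4-/- alone and 22 in WT alone. Of the 955 gained genes these counts were 7 and 17.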

How the data were processed

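ChIP-seq of native chromatin from BMDM was processed by the authors. Per the study's methods and the submitters' processing notes, reads were processed with CASAVA 1.8 and cutadapt 1.15 and mapped to mm10 with Bowtie2 2.3.4, replicates were merged, and SICER 2.0 called peaks (windows 200 bp wide, gaps up to 600 bp, FDR limit 0.01). The fourth column of each deposited list is the read count per peak, unscaled and not corrected for input, a single input library (labelled C57BL6) serving H3K27ac. Depth is not given in the sources used here. The mdx lists were not used.

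Here the last base of each peak was taken as included. Starts were those of GENCODE vM21 gene records, and 27 symbols name more than 1 gene. Classes, scaled ratios, Wilson and exact Clopper-Pearson intervals were computed with Python 3.11.15, pandas 2.3.3 and scipy 1.17.1, and the code was tested on simulated data. Intervals and counts cover counting error only. Named were all genes of the TLR4 pathway and marker lists, the 10 lost and 10 gained genes and the 8 kept genes with the most reads, the 8 highest and 8 lowest ratios among kept genes of at least 50 reads, and genes from among up to 3 per class and list, genes with the same peaks once; others are said to be chosen after their values were seen, and the same ranks were taken again with joined peaks. The members and lists were chosen with earlier results of these data known. Promoter windows were read from the GRCm38.p6 genome for 20802 of 20807 genes, and 15704 gene symbols were in the RefSeq promoter table. No test was made, since each genotype had 1 list. Some genes that these rules name are not reported here.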

Additional observations from a re-analysis of the deposited data

How the results depend on the processing

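The counts of lost, gained and kept genes and the median scaled log2 ratio of kept genes (0.14) were recomputed under each alternative. With peaks of at least 10 reads in each list 345 genes were gained and 3312 kept, and the median was 0.37. With WT peaks of at least 9 reads 833 genes were lost and 1514 gained, and the median was -0.11. The median was 0.00 and 0.01 with the same number of peaks taken from each list by reads or by reads per kb, -0.54 unscaled, and -0.40 when scaled to the median reads per kb. The cause was not tested. Equal numbers of peaks gave 1144 lost and 1200 gained genes by reads and 1260 and 1168 by reads per kb, and peaks of at least 10 reads gave 1933 lost. All other alternatives gave 1264 to 1669 lost, 794 to 1031 gained and 4441 to 6241 kept genes, where they change these counts, and a median of 0.09 to 0.18. They were 5 kb upstream only, 1 kb and 10 kb on each side, the start of any protein-coding transcript, an overlap of 200 bp, no peak of the other list within 10 kb, reads shared out by length and kept genes of at least 50 reads. They also include joined peaks, the removal of dense peaks and 1 value per set of peaks, which were chosen after seeing the data. Of the TLR4 pathway 10 to 17 genes were kept, 1 to 4 lost and 1 to 6 gained. Leaving out a replicate could not be done, since the WT list holds 2 merged libraries and the mdxTLR4-/- list 1. No paired analysis was possible because each genotype has 1 list without replicate columns. The interval of the scaled ratio held 1 at 88.8% of kept genes, so at most single genes the counts did not separate the scaled ratio from 1.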

Other observations

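Over whole chromosomes and not only the gene windows, 500 kb bins with at least 100 reads over both lists (1397 bins) had scaled log2 ratios of mdxTLR4-/- to WT reads between -1.15 and 0.89 from the 1st to the 99th percentile. On chromosome 5 (chr5:14500001-16000000, with Speer genes, a testis gene family) mdxTLR4-/- had 49 peaks with 517 reads and WT 14 peaks with 117 reads, a scaled ratio of 7.10 (exact 95% interval 5.80 to 8.76). The bin of the reproductive homeobox genes Obox1 and Obox2 on chromosome 7 had 18 mdxTLR4-/- and 206 WT reads, a scaled ratio of 0.140. The first bin of mapped sequence on chromosome 10, with H60c and Ppp1r14c, had 13 and 208 reads, a scaled ratio of 0.100. A bin without a gene start on chromosome 8 (chr8:55000001-55500000) had 9 and 143 reads, a scaled ratio of 0.101. The bin of Arid1b, a subunit of a chromatin remodelling complex, on chromosome 17 had 199 and 101 reads, a scaled ratio of 3.17. These bins were found by their extreme values and were not tested.

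On chromosome X WT had 470 peaks with 5906 reads, 2.16% of its reads in peaks, and mdxTLR4-/- 247 peaks with 2707 reads, 1.61%. On chromosome Y WT had 233 peaks with 2051 reads, 0.748% of its reads in peaks, and mdxTLR4-/- 42 peaks with 275 reads, 0.163%.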
